A study of Mus musculus with 16 samples.

Results

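The comparison described here set lungs of mice exposed to second-hand smoke (SHS) both before birth and in adult life (SS) against lungs of mice that breathed filtered air at both times (AA). It was chosen by sample title: the 4 SS and the 4 AA arrays of 16 in the series entered it, and every gene on the array was tested. The animals were male Balb/c mice aged 15 weeks, and total RNA of the left lung had been hybridised to Affymetrix mouse expression arrays. SS mice had SHS in utero and as adults, AA mice had filtered air in utero and as adults. The series also holds AS mice (air in utero, SHS as adults) and SA mice (SHS in utero, air as adults), 4 arrays each. The smoke was sidestream cigarette smoke at a particle load of 10 mg/m3, and smoke or filtered air was given 7 days a week, 5 hours each day. The labels call the replicates biological, but give no litter, dam, hybridisation batch, hour of collection or length of the adult exposure, so none of these could be entered in a test.

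Cigarette smoke carries polycyclic aromatic hydrocarbons that bind the aryl hydrocarbon receptor (AhR), a transcription factor whose best known target is Cyp1a1. Glucocorticoids, the adrenal stress hormones, act through another ligand-driven factor, the glucocorticoid receptor, which induces a small set of genes in most tissues, Fkbp5, Tsc22d3 and Zbtb16 among them. The lung also holds resident lymphocytes and macrophages, and interferon-gamma keeps a family of immunity-related GTPases switched on in many of its cells.

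SS replicates 1 and 2 differed from each other hardly more than technical noise does. The root mean square of their difference over the 300 most variable bright probe sets was 1.24 times that over the 3000 least variable, while 22 of the 24 pairs of arrays within groups had ratios from 2.84 to 5.96. They were averaged and counted as 1 sample, as were AS replicates 3 and 4 (ratio 1.35), which left 7 samples in the comparison, 3 SS and 4 AA, of 14 in the series. Values are the deposited log2 values, given below for SS in the order of the averaged replicates 1 and 2, replicate 3 and replicate 4, and for AA in the order of replicates 1 to 4. Array medians lay between 6.90 and 6.91 in the SS samples and between 6.91 and 6.93 in the AA samples. The lung markers were as labelled: Sftpc, the surfactant protein of alveolar type 2 cells, read 15.06 to 15.09 in SS and 15.06 to 15.09 in AA lungs. RNA quality moved slightly with the groups. The 3′ minus 5′ log2 difference of the Gapdh control probe sets was -0.098 to -0.048 in SS and -0.037 to 0.061 in AA samples, with no overlap, while that of Actb overlapped (0.285 to 0.324 in SS, 0.306 to 0.409 in AA). Its part in the results below was not tested.

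A small set of genes passed the threshold between lungs exposed at both times and air lungs, which is not a count of all genes that differ. At an unadjusted p under 0.05 (limma) there were 4628 probe sets. At an adjusted p of at most 0.05 (limma, Benjamini-Hochberg over 45037 probe sets), 83 probe sets were higher (0.184%) and 97 lower (0.215%) in SS than in AA, 180 in all or 0.4% of those tested. A gene with several probe sets is represented here by its brightest, the one with the highest mean. On that count 41 genes were higher (0.225% of 18193) and 53 lower (0.291%), 94 in all (0.517%), and "passed" below means past this threshold at the brightest probe set unless a dimmer one is named. Counts of called list members in SS against AA, given below, stand beside these shares of all genes. The changes were moderate. The median rise among the 41 genes was 0.57 and the median fall among the 53 was -0.57 on the log2 scale, and 8 genes rose and 2 fell by at least 1 log2 unit. For all 94 genes the SS and AA values did not overlap, which was also true of 16.2% of all genes. The calls depended on single samples: leaving out 1 sample at a time left between 17 genes (without SS replicate 3) and 95 genes (without AA replicate 4), and 13 of the 94 genes passed in all 7 such fits.

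**Figure D1:**
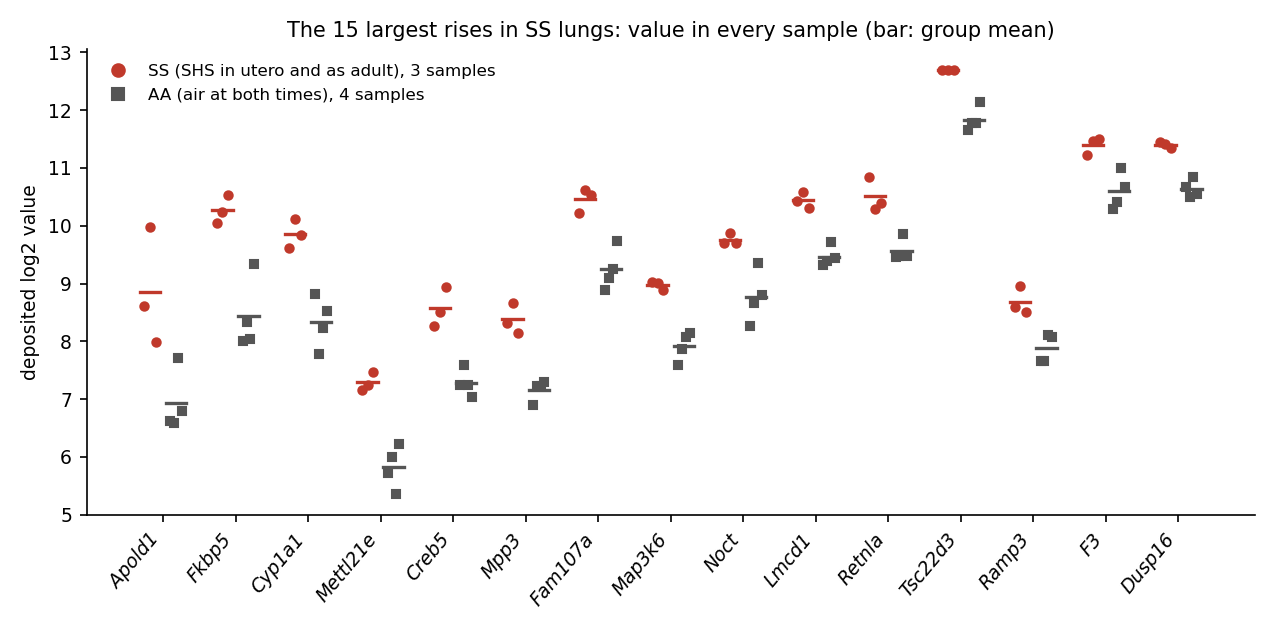
Deposited log2 values (vertical axis) of the 15 genes with the largest rises in SS lungs, each at its brightest probe set. Circles on the left of each gene are the 3 SS samples and squares on the right the 4 AA samples, with bars at the group means; no gene's SS values overlap its AA values, and AA replicate 4 is the highest air sample for Fkbp5 and Fam107a.

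Cyp1a1, the cytochrome P450 that oxidises polycyclic aromatic hydrocarbons, rose in SS lungs. It read 9.61, 10.12 and 9.85 in SS lungs, against 8.81, 7.77, 8.22 and 8.53 in AA lungs. Every SS sample lay above every AA sample. The difference was 1.53 ± 0.19 on the log2 scale, 2.88-fold (limma, adjusted p = 0.00399; errors are standard errors of the fit), and it passed in 7 of 7 fits that left out a sample. Cyp1b1, a related P450 of the same regulation, read 8.14, 8.35 and 8.28 in SS lungs and 7.70, 7.47, 7.79 and 7.79 in AA lungs. Its rise was smaller (0.57 ± 0.11, 1.49-fold, adjusted p = 0.0407) and passed in 1 of 7 such fits, the one without AA replicate 4. Among 8 measured of 10 listed AhR targets these were the 2 that passed, where 0.225% of all genes were called higher. Without overlap 4 of the 8 stood higher, as did 6.76% of all genes. The list had a median difference of 0.20, against -0.00 over all genes. Tiparp, an ADP-ribosyltransferase that restrains AhR, differed by 0.45 (adjusted p = 0.0611), and Ahrr, the AhR repressor, by 0.25 (adjusted p = 0.354).

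The 250 bases before the start sites of both called AhR targets are shown because each holds the core of the element that AhR binds, GCGTG on either strand, which is set in capitals (RefSeq, GRCm38.p6). Cyp1a1 lies on the plus strand at chr9:57697363-57697612, with 1 match 54 bases before the start site. Cyp1b1 lies on the minus strand at chr17:79715062-79715311, with 1 match, read as CACGC, 76 bases before the start site. The motif occurs in 28.2% of 32851 such windows, so a match describes the letters and is not a site.
Cyp1a1: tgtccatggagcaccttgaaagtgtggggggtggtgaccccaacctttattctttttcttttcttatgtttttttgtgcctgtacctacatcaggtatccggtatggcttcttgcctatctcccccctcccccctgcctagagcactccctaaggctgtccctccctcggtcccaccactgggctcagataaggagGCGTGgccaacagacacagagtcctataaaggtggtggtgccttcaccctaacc
Cyp1b1: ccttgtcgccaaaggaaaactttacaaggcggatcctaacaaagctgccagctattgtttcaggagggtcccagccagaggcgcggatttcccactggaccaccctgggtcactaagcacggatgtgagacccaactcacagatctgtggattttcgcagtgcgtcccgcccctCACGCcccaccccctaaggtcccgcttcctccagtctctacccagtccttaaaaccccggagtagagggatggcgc

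Genes induced by glucocorticoids stood higher in SS lungs. Of 18 genes in the list 4 passed, all of them higher, where 0.225% of all genes were called higher. Between the groups 12 did not overlap, all of them higher (6.76% of all genes were higher without overlap). The list median was 0.57. Averaged over the list and set against the AA mean, the 3 SS samples stood at 0.72, 0.83 and 0.70, above the 4 AA samples at -0.25, -0.09, 0.09 and 0.25. Fkbp5, the Hsp90 co-chaperone that lowers the receptor's affinity for hormone, read 10.04, 10.25 and 10.53 in SS lungs, against 8.0, 8.33, 8.04 and 9.34 in AA lungs. AA replicate 4 stood apart from the other air samples, yet below all SS samples. The difference was 1.84 ± 0.35, 3.59-fold (limma, adjusted p = 0.0341). Fam107a, an actin-binding protein induced by stress, read 10.22, 10.61 and 10.53 in SS lungs and 8.89, 9.10, 9.26 and 9.74 in AA lungs (1.21 ± 0.24, 2.31-fold, adjusted p = 0.0463). Tsc22d3, which encodes the anti-inflammatory protein GILZ, read 12.69 in each SS sample and 11.66, 11.77, 11.77 and 12.14 in AA lungs (0.85 ± 0.17, 1.80-fold, adjusted p = 0.0442). Map3k6, a stress-activated kinase of the JNK and p38 pathways, rose by 1.05 ± 0.21 (2.08-fold, adjusted p = 0.0458). All 4 are near the threshold: each passed in 1 of the 7 fits that left out a sample, the one without AA replicate 4.

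The transcription factor Zbtb16 had the largest difference of all 18193 genes. At its brightest probe set it read 11.92, 11.87 and 12.22 in SS lungs, against 8.65, 9.28, 9.34 and 10.94 in AA lungs. SS and AA did not overlap, but the air samples spread over more than 2 log2 units, and the difference of 2.45 ± 0.53 did not pass (adjusted p = 0.0632). A dimmer probe set of Zbtb16 did pass, at 1.70 ± 0.31 (adjusted p = 0.03). Klf9, a glucocorticoid- and clock-responsive zinc finger factor, likewise rose at a dimmer probe set (0.79 ± 0.11, adjusted p = 0.00696) and read 13.51, 13.58 and 13.58 in SS, against 12.97, 13.09, 13.02 and 13.32 in AA, at the brightest (0.46 ± 0.11, adjusted p = 0.105). Cdkn1a, the cell-cycle inhibitor p21 and a shared target of the glucocorticoid receptor and p53, rose by 1.38 ± 0.24 at a dimmer probe set (adjusted p = 0.021), with 1.11 ± 0.27 at the brightest (adjusted p = 0.102). The deubiquitinase Usp2, whose messenger cycles with the clock, rose at a dimmer probe set by 0.78 ± 0.11 (adjusted p = 0.006) and stood at 0.55 ± 0.12 at the brightest (adjusted p = 0.076).

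**Figure D2:**
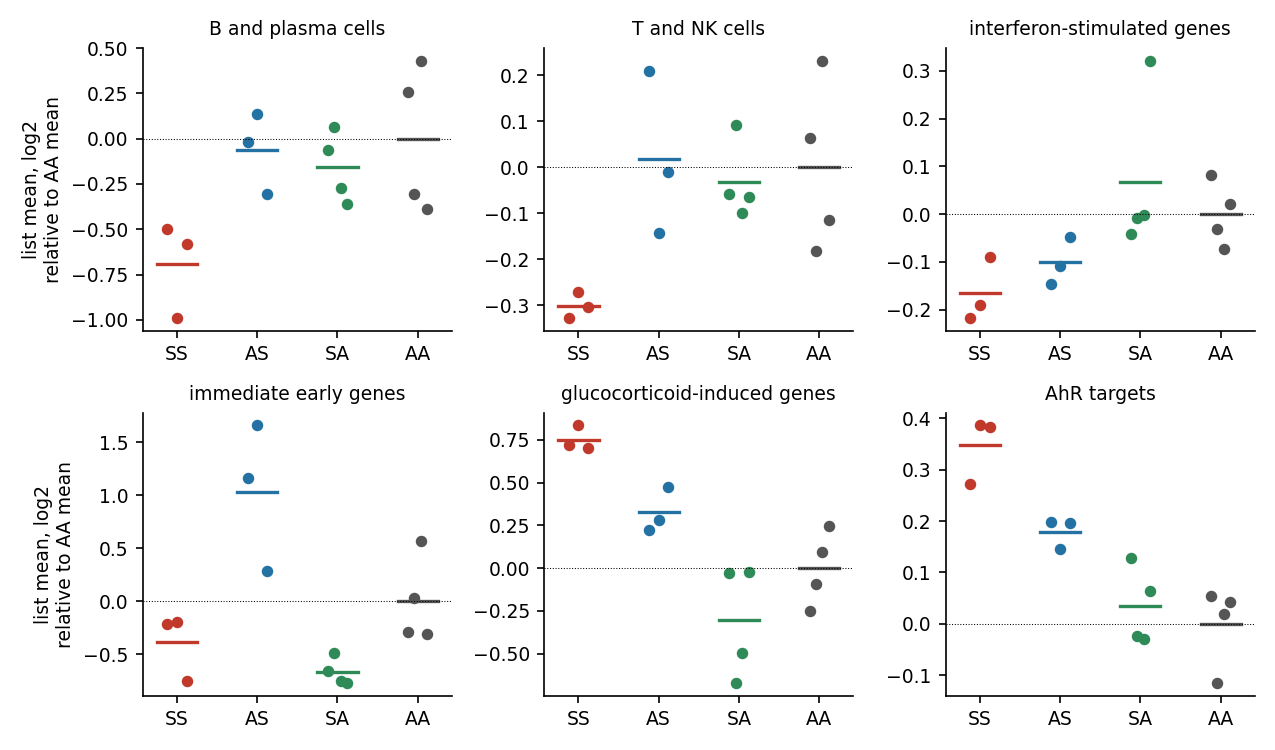
Mean over the members of 6 gene lists in each sample (points, with bars at group means), as log2 relative to the AA mean, for SS, AS, SA and AA lungs. The SS samples lie above all AA samples for glucocorticoid-induced genes and AhR targets and below all AA samples for interferon-stimulated genes and for both lymphocyte lists.

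Some other rises did not depend on any 1 sample. Creb5, a leucine-zipper factor that binds cyclic AMP response elements, read 8.27, 8.51 and 8.93 in SS lungs, against 7.25, 7.58, 7.25 and 7.04 in AA lungs. Dusp16, a phosphatase that switches off the kinases JNK and p38, read 11.45, 11.41 and 11.34 in SS lungs, against 10.67, 10.49, 10.84 and 10.55 in AA lungs. Neither gene overlapped between the groups. Creb5 rose by 1.29 ± 0.16 (2.45-fold, adjusted p = 0.0036) and Dusp16 by 0.76 ± 0.08 (1.70-fold, adjusted p = 0.00152), and both passed in 7 of 7 fits that left out a sample. So did Mettl21e, a protein methyltransferase known from muscle, at 7.16, 7.24 and 7.47 in SS and 5.72, 6.01, 5.36 and 6.23 in AA lungs (1.46 ± 0.20, adjusted p = 0.00613). Mpp3, a membrane-associated guanylate kinase that scaffolds cell junctions, also held in 7 of 7, at 8.32, 8.67 and 8.15 in SS and 6.89, 7.22, 7.23 and 7.29 in AA lungs (1.22 ± 0.16, adjusted p = 0.00441). Lmcd1, a LIM-domain protein that represses GATA6, rose by 0.98 ± 0.15 (adjusted p = 0.0103) but did depend on single samples, passing in 5 of 7.

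Apold1, F3 and Ramp3 rose in SS lungs, while Aplnr and Myct1 fell. Apold1, an endothelial protein of the early response to stress, had the largest called rise but uneven values: 8.62, 9.97 and 7.98 in SS lungs, against 6.62, 6.59, 7.71 and 6.80 in AA lungs. The groups did not overlap, SS replicate 3 was far the highest, and the difference was 1.93 ± 0.37 (3.80-fold, adjusted p = 0.0389). F3, the tissue factor that starts coagulation, rose by 0.80 ± 0.16 (adjusted p = 0.0463), and Ramp3, a partner of the adrenomedullin receptor, by 0.81 ± 0.15 (adjusted p = 0.0332). Apold1 passed in 2, F3 in 1 and Ramp3 in 2 of the 7 fits that left out a sample. The list of 16 endothelial markers had a median of 0.02, which was -0.0076 without SS replicate 4. None stood higher and 5 stood lower without overlap (9.49% of all genes did), and the list mean was -0.058, -0.084 and -0.077 in SS samples, against 0.048, 0.022, -0.045 and -0.025 in AA samples. One member passed, Aplnr, the apelin receptor, which fell: 12.12, 12.17 and 12.12 in SS lungs, against 12.79, 12.83, 12.70 and 12.64 in AA lungs (-0.61 ± 0.07, adjusted p = 0.00165, 7 of 7). Myct1, a Myc target of endothelial cells, fell by 0.74 ± 0.13 (adjusted p = 0.0296, 3 of 7).

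In each of 4 further regulatory lists, 1 member passed and was higher, where 0.225% of all genes were called higher. Noct, a rhythmic phosphatase outside the clock list, rose by 0.99 ± 0.20 (1.98-fold, adjusted p = 0.0465), and passed in the fit without AA replicate 3 and in no other fit that left out a sample. Of 18 clock genes 1 passed, the repressor Cry2 (0.40 ± 0.08, adjusted p = 0.0389, in none of the 7 fits that left out a sample). Without overlap 5 clock genes stood higher (6.76% of all genes did) and 2 lower (9.49% did). The clock list's median of 0.28 was 0.15 without AA replicate 1 and 0.077 without SS replicate 4. The hour of collection is not in the labels, and its part in the clock, glucocorticoid and immediate early lists was not tested. The largest other differences among clock genes were Npas2, a partner of Bmal1, at -0.68 (adjusted p = 0.368) and the repressor Per2 at 0.66 (adjusted p = 0.332). Among 12 Kruppel-like factors, zinc finger regulators of growth and metabolism, Klf7 passed (0.50 ± 0.09, adjusted p = 0.0296), 8 stood higher with no overlap (6.76% of all genes did) and the median was 0.27. Klf15 and Klf13 differed by 0.86 (adjusted p = 0.0782) and 0.69 (adjusted p = 0.0942). Of 13 p53 targets 1 passed, Trp53inp1, which promotes autophagy and cell death (0.52 ± 0.10, adjusted p = 0.0314). Of the 13, 11 differed upward and 6 stood higher without overlap (6.76% of all genes did). The p53 list mean was 0.23, 0.30 and 0.24 in SS samples and -0.06 to 0.06 in AA samples. The death receptor Fas stood at 0.63 (adjusted p = 0.0723), and the p53 list's median of 0.16 was 0.10 without SS replicate 3. Of 16 hypoxia and glycolysis genes 1 passed, Pfkfb3, which makes the main activator of glycolysis (0.62 ± 0.10, adjusted p = 0.0164). Of the 16, 12 differed upward and 4 stood higher without overlap (6.76% of all genes did). Hk2, the first glycolytic enzyme, stood at 0.68 (adjusted p = 0.0574) and Ndrg1 at 0.42 (adjusted p = 0.172). The hypoxia and glycolysis list's median of 0.10 was 0.064 without SS replicate 4.

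Retnla, a secreted protein made by lung epithelium and macrophages under type 2 cytokines, rose by 0.94 ± 0.14 (1.92-fold, adjusted p = 0.0112). It read 10.85, 10.28 and 10.39 in SS lungs, against 9.46, 9.48, 9.85 and 9.48 in AA lungs. AA replicate 3 was the high air sample and the averaged SS pair the high smoke sample, and the call was lost without that pair. It was the 1 called gene of 21 in the list of type 2 immunity and mucus genes, where 0.225% of all genes were called higher. Of the 21, 18 differed upward, with a median of 0.11. The mucin Muc5b stood at 0.42 (adjusted p = 0.306) and the chemokine Ccl17 at 0.34 (adjusted p = 0.495).

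**Figure D3:**
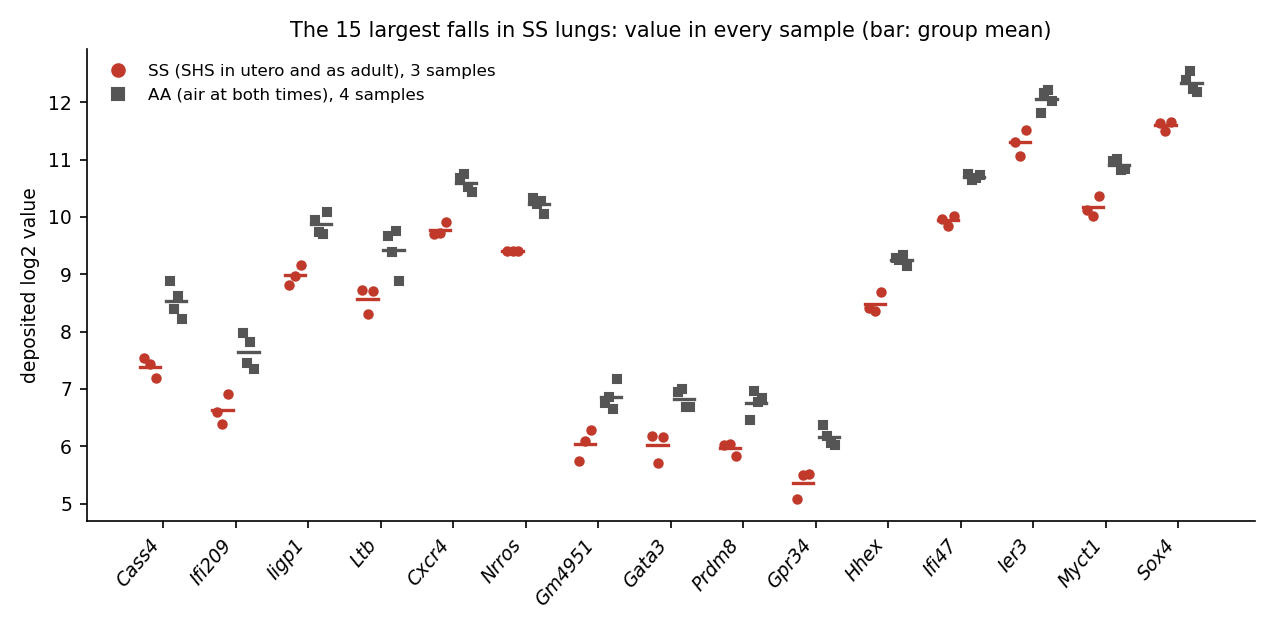
Deposited log2 values (vertical axis) of the 15 genes with the largest falls in SS lungs, each at its brightest probe set. Circles on the left of each gene are the 3 SS samples and squares on the right the 4 AA samples, with bars at the group means; Nrros reads 9.40 in each SS sample, and the values of no gene overlap between the groups.

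Ifi47, Iigp1, Gm4951 and Ifi209 were among the 15 largest falls. Ifi47, an immunity-related GTPase that acts against intracellular microbes, read 9.96, 9.84 and 10.02 in SS lungs, against 10.75, 10.65, 10.68 and 10.72 in AA lungs. Iigp1, a GTPase of the same family, read 8.82, 8.98 and 9.16 in SS lungs, against 9.95, 9.73, 9.70 and 10.09 in AA lungs. Both were lower in every SS sample than in every AA sample, Ifi47 with little spread in either group. Ifi47 fell by 0.76 ± 0.09 (limma, adjusted p = 0.00165) and passed in 7 of 7 fits that left out a sample, and Iigp1 by 0.89 ± 0.16 (adjusted p = 0.0303), at both of its 2 probe sets, and in 1 of 7. Gm4951, a predicted interferon-inducible GTPase, fell by 0.82 ± 0.15 (adjusted p = 0.0314), and Ifi209, an interferon-inducible protein of the p200 family, by 1.02 ± 0.19 (2.03-fold lower, adjusted p = 0.033). In the list of interferon-stimulated genes, which holds Iigp1 and not the other 3, 16 of 19 measured members differed downward and 9 of them did not overlap between the groups, against 9.49% of all genes lower with no overlap. One of the 19 passed, Iigp1. The median was -0.14, and the list mean stood at -0.22, -0.19 and -0.09 in SS and at 0.08, -0.03, -0.07 and 0.02 in AA samples. Igtp, another GTPase of the family, differed by -0.36 (adjusted p = 0.0739). Rsad2, the antiviral protein viperin, stood at 0.39 (adjusted p = 0.881), carried by SS replicate 4 at 10.74, and at -0.17 without it.

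Ltb and Gata3 fell in SS lungs, and the marker lists of lymphocytes stood lower. Ltb, the membrane lymphotoxin of T and B cells, read 8.72, 8.30 and 8.70 in SS lungs, against 9.67, 9.40, 9.75 and 8.89 in AA lungs (-0.85 ± 0.17, 1.81-fold lower, adjusted p = 0.0495). Gata3, a transcription factor of T helper 2 cells and innate lymphoid cells, read 6.18, 5.71 and 6.16 in SS lungs, against 6.94, 7.01, 6.69 and 6.69 in AA lungs (-0.81 ± 0.16, adjusted p = 0.0389). Neither overlapped, although for Ltb AA replicate 4 came close to the SS samples, and each passed in 1 of 7 fits that left out a sample, the one without AA replicate 4. None of 13 B and plasma cell markers passed, but all 13 differed downward, with a median of -0.76, 5 without overlap (9.49% of all genes were lower without overlap). Their list mean was -0.50, -0.99 and -0.58 in SS samples, below 0.26, -0.30, 0.43 and -0.39 in AA samples, and their summed linear level was 3472 to 5530 in SS and 5740 to 11222 in AA. Ms4a1, the B cell antigen CD20, stood at -1.07 ± 0.34 (adjusted p = 0.248) and Fcer2a, the low-affinity IgE receptor CD23, at -1.01 ± 0.23 (adjusted p = 0.0782). Of 16 T and NK cell markers 1 passed, Gata3, and 14 differed downward, with a median of -0.38. Their list mean was -0.33, -0.27 and -0.30 in SS samples, against 0.06, -0.18, 0.23 and -0.11 in AA samples, and their summed linear level 3401 to 3718 in SS and 3719 to 5478 in AA. Ncr1, an NK cell receptor, and Cd3g, a chain of the T cell receptor complex, stood at -0.64 (adjusted p = 0.216) and -0.55 (adjusted p = 0.107). In whole lung, fewer lymphocytes and less RNA per lymphocyte cannot be told apart.

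Nrros, Cxcr4, Cass4 and Gpr34 also fell. Nrros, which anchors latent TGF-beta on macrophages, had the lowest adjusted p of all probe sets. It read 9.40 in each of the 3 SS samples, against 10.33, 10.22, 10.28 and 10.04 in AA lungs (-0.82 ± 0.08, 1.76-fold lower, adjusted p = 0.00148, 7 of 7). Cxcr4, the receptor of the chemokine CXCL12 on leukocytes and vessels, read 9.71, 9.72 and 9.91 in SS lungs, against 10.68, 10.75, 10.53 and 10.44 in AA lungs (-0.82 ± 0.11, adjusted p = 0.00618, 6 of 7, lost without SS replicate 3). Cass4, a scaffold of focal adhesions, had the largest called fall, at 7.53, 7.43 and 7.19 in SS and 8.88, 8.39, 8.62 and 8.23 in AA lungs (-1.15 ± 0.20, 2.21-fold lower, adjusted p = 0.0245, 1 of 7). Gpr34, a lysophosphatidylserine receptor of myeloid and lymphoid cells, fell by 0.79 ± 0.16 (adjusted p = 0.0477, 0 of 7). Ccr2, the receptor that brings monocytes into tissue, fell by 1.01 ± 0.20 at a dimmer probe set (adjusted p = 0.0463), and at its brightest read 8.17, 8.22 and 8.27 in SS, against 9.71, 8.89, 9.25 and 8.92 in AA lungs (-0.97 ± 0.20, adjusted p = 0.0507). Ptprc, the pan-leukocyte antigen CD45, fell by 0.91 ± 0.17 at a dimmer probe set (adjusted p = 0.0315) and stood at -0.37 at the brightest (adjusted p = 0.223). The 11 markers of interstitial macrophages and monocytes had 0 calls and a median of -0.10 (-0.064 without AA replicate 4), with Cx3cr1, the fractalkine receptor, at -0.51 (adjusted p = 0.14). The part of cell numbers in these falls was not tested.

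The transcription factors Sox4, Hhex, Prdm8 and Tcf21 fell. Sox4, a progenitor factor of lymphoid and epithelial lineages, read 11.64, 11.49 and 11.66 in SS lungs, against 12.39, 12.55, 12.24 and 12.18 in AA lungs (-0.74 ± 0.10, 1.67-fold lower, adjusted p = 0.00547, 7 of 7). At 1 of its 8 probe sets it passed, and 7 of the 8 differed downward. Hhex, a homeobox factor of blood and endothelium, fell by 0.77 ± 0.12 (adjusted p = 0.0132), and Prdm8, a PR-domain repressor, by 0.79 ± 0.13 (adjusted p = 0.0164). Tcf21, a factor of lung fibroblasts, was the 1 of 13 fibroblast markers that passed (-0.45 ± 0.08, adjusted p = 0.0296), in a list with a median of -0.00. Lrrn4, a mesothelial surface protein, was the 1 of 11 mesothelial markers that passed (-0.57 ± 0.10, adjusted p = 0.0213; list median -0.13, with the mesothelial factor Bnc1 at -0.71 and adjusted p = 0.198). Tet1, an enzyme that oxidises methylcytosine, read 6.42, 6.40 and 6.47 in SS lungs, against 6.99, 7.11, 6.81 and 7.09 in AA lungs (-0.57 ± 0.11, adjusted p = 0.0389, 1 of 7), and no other of the 9 listed DNA methylation genes passed; Mbd1 stood at 0.32 and Dnmt3a at -0.28 (adjusted p = 0.406 and 0.191). Meis2, a homeobox cofactor, and Nr5a2, a nuclear receptor, fell at a dimmer probe set each (-0.91 ± 0.12, adjusted p = 0.00441, and -0.87 ± 0.12, adjusted p = 0.00598), while their brightest stood at -0.35 (adjusted p = 0.433) and -0.00 (adjusted p = 0.996).

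Immediate early genes, which cells switch on within minutes of stimulation, did not form a called group against air lungs. Of 18 listed 1 passed, Ier3, a survival gene, which read 11.31, 11.06 and 11.52 in SS lungs, against 11.82, 12.17, 12.22 and 12.02 in AA lungs (-0.76 ± 0.15, adjusted p = 0.0407, in 0 of 7 fits that left out a sample). Fos read 10.97, 11.84 and 10.69 in SS lungs, against 13.12, 13.09, 12.61 and 12.28 in AA lungs, with no overlap, yet its difference of -1.61 ± 0.44 did not pass (adjusted p = 0.168). Egr1 stood at -1.54 ± 0.40 (adjusted p = 0.138). Of the 18, 12 differed downward. Without overlap 7 stood lower (9.49% of all genes did) and 1 higher. The list median of -0.49 was -0.32 without AA replicate 3 and -0.28 without SS replicate 4. In SA lungs, without adult smoke, the median was -0.69, and in AS lungs 1.10, each minus AA. Against lungs exposed as adults only, 9 of the 18 were lower in SS at an adjusted p of at most 0.05 and 0 higher, where 0.467% of all genes were lower and 0.764% passed either way. The AS samples were uneven: their list means were 1.16, 1.66 and 0.28, the last for the averaged replicates 3 and 4 and within the AA range of -0.31 to 0.57. The SS list means were -0.21, -0.20 and -0.75. Junb read 8.19, 8.11 and 7.96 in SS lungs, against 9.99, 10.44 and 9.34 in AS lungs (-1.83, adjusted p = 0.0012). Fos and Egr1 differed from AS by -2.25 (adjusted p = 0.0363) and -2.43 (adjusted p = 0.0138). Among 18 feedback inhibitors of MAPK and cytokine signalling 1 passed in SS against AA, Dusp6, the ERK phosphatase, which fell by 0.48 ± 0.08 (adjusted p = 0.0172). In AS against AA 8 of them were higher (0.594% of all genes were), Dusp6 included (0.48, adjusted p = 0.00971). Dusp8 and Errfi1, the largest other differences of SS from AA, stood at 0.63 (adjusted p = 0.0972) and 0.55 (adjusted p = 0.409).

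Lists of several other lung responses held no call in SS against AA (limma, adjusted p at most 0.05). NRF2 drives antioxidant defence, and 0 of its 14 measured targets passed (median 0.06). Hmox1, heme oxygenase, differed by 0.51 (adjusted p = 0.251) and Srxn1 by 0.26 (adjusted p = 0.411). None of 13 neutrophil and monocyte chemokines passed. Their median of -0.17 was 0.038 without AA replicate 3 and -0.25 without AA replicate 4, with Ccl12 at -0.86 (adjusted p = 0.283) and Ccl3 at -0.45 (adjusted p = 0.772). None of 18 emphysema proteases and inhibitors passed (median 0.07, and 0.021 without AA replicate 2). The metalloprotease Adamts9 read 12.19, 12.37 and 11.06 in SS lungs, against 10.06, 9.59, 11.45 and 9.70 in AA lungs, an overlapping difference of 1.68 ± 0.38 (adjusted p = 0.0832), and Adamts1 stood at 0.59 (adjusted p = 0.294). Of the airway and alveolar cell lists, none of 12 club cell markers (median 0.02), 11 alveolar type 2 markers (median -0.00), 15 alveolar macrophage markers (median 0.07) and 13 neutrophil markers (median 0.11) passed. The neutrophil median was -0.0083 without the averaged SS pair and 0.047 without AA replicate 2. The secretoglobin Scgb3a1 stood at 0.83 (adjusted p = 0.0863) and Bpifa1, an antimicrobial airway protein, at -0.52 (adjusted p = 0.764). Gpnmb and Fabp4 of macrophages stood at 0.36 (adjusted p = 0.086) and -0.36 (adjusted p = 0.478), and Ngp and Il1r2 of neutrophils at 0.74 (adjusted p = 0.748) and 0.57 (adjusted p = 0.192). These adjusted p do not show that the genes were alike in both groups.

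**Figure D4:**
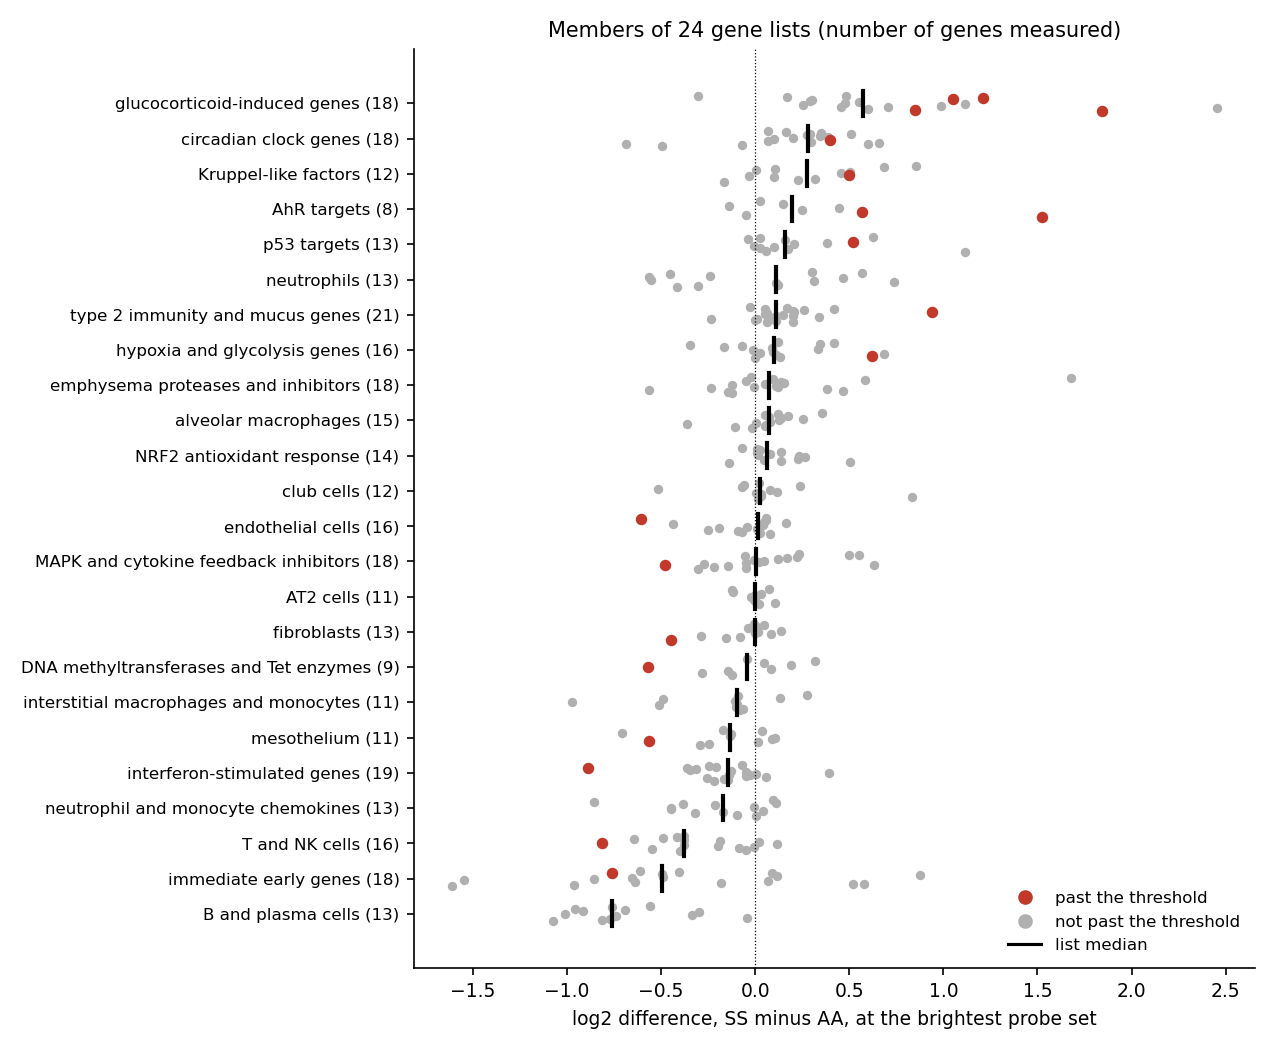
Log2 difference SS minus AA (horizontal axis) of each member of 24 gene lists at its brightest probe set, with the number of measured genes in brackets. Red points passed the threshold, grey points did not, and black bars mark list medians, from 0.57 for glucocorticoid-induced genes to -0.76 for B and plasma cell markers.

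The same genes were also read in lungs exposed at 1 of the times. SA minus AA and AS minus AA use the same AA samples as SS minus AA, so their values are given side by side and are not independent of it. SA minus AA had 0 of 45037 probe sets past the threshold (limma; 2808 at an unadjusted p under 0.05), and AS minus AA had 699 (1.55%). Of the 30 genes with the largest changes in SS, 3 passed in AS against AA, where 1.12% of all genes did: Apold1, Retnla and Ifi47. Apold1 was higher after adult exposure alone (3.18 in AS, 1.93 in SS, each minus AA), Retnla stood at 0.66 in AS and 0.94 in SS, and Ifi47 at -0.40 in AS and -0.76 in SS. The type 2 and mucus list had a median of 0.21 in AS, 0.11 in SS and -0.01 in SA, each minus AA. In AS against AA 2 of its 21 members were called higher, where 0.594% of all genes were. Its list means were 0.15 to 0.26 in AS, 0.14 to 0.20 in SS and -0.05 to 0.08 in AA samples. The AhR list had a median of 0.20 in SS, 0.18 in AS and 0.00 in SA, each minus AA. Its list means were 0.27 to 0.39 in SS, 0.14 to 0.20 in AS, -0.03 to 0.13 in SA and -0.11 to 0.05 in AA samples. Cyp1a1 stood at 0.51 in AS (adjusted p = 0.155) and 0.14 in SA (adjusted p = 0.959), against 1.53 in SS. It read 9.61 to 10.12 in SS lungs, above 8.78, 8.78 and 8.98 in AS lungs, and SS minus AS was 1.01 (adjusted p = 0.0265). The glucocorticoid list had a median of 0.57 in SS, 0.32 in AS and -0.31 in SA, each minus AA. Of its 18 genes, 2 were called higher in AS against AA, where 0.594% of all genes were. In SS against AS, 1 was called higher and 1 lower, where 0.764% of all genes passed. Its summed linear level was 71765 to 82666 in SS, 74467 to 81691 in AS and 52771 to 61145 in AA samples. Fkbp5 stood at 1.84 in SS, 0.26 in AS and -0.12 in SA, each minus AA. The B cell list had medians of -0.76, 0.15 and -0.14, and the T and NK list of -0.38, 0.04 and -0.06, in the same order. The B cell list mean in AS was -0.06 relative to AA, and in AS minus AA 1 member was called lower and 0 higher. Clock genes had a median of 0.28 in SS, 0.28 in AS and -0.18 in SA, each minus AA, and of -0.012 in SS minus AS. The clock list means were 0.12 to 0.26 in SS, 0.14 to 0.19 in AS and -0.13 to 0.12 in AA samples. Of the 30 genes, 12 passed in SS against AS, 6 rises and 6 falls, where 0.764% of all genes passed. In SS against SA 29 passed, 15 rises and 14 falls, all but Ltb, where 1.91% did. SS minus AS and SS minus SA share the SS samples with SS minus AA.

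**Figure D5:**
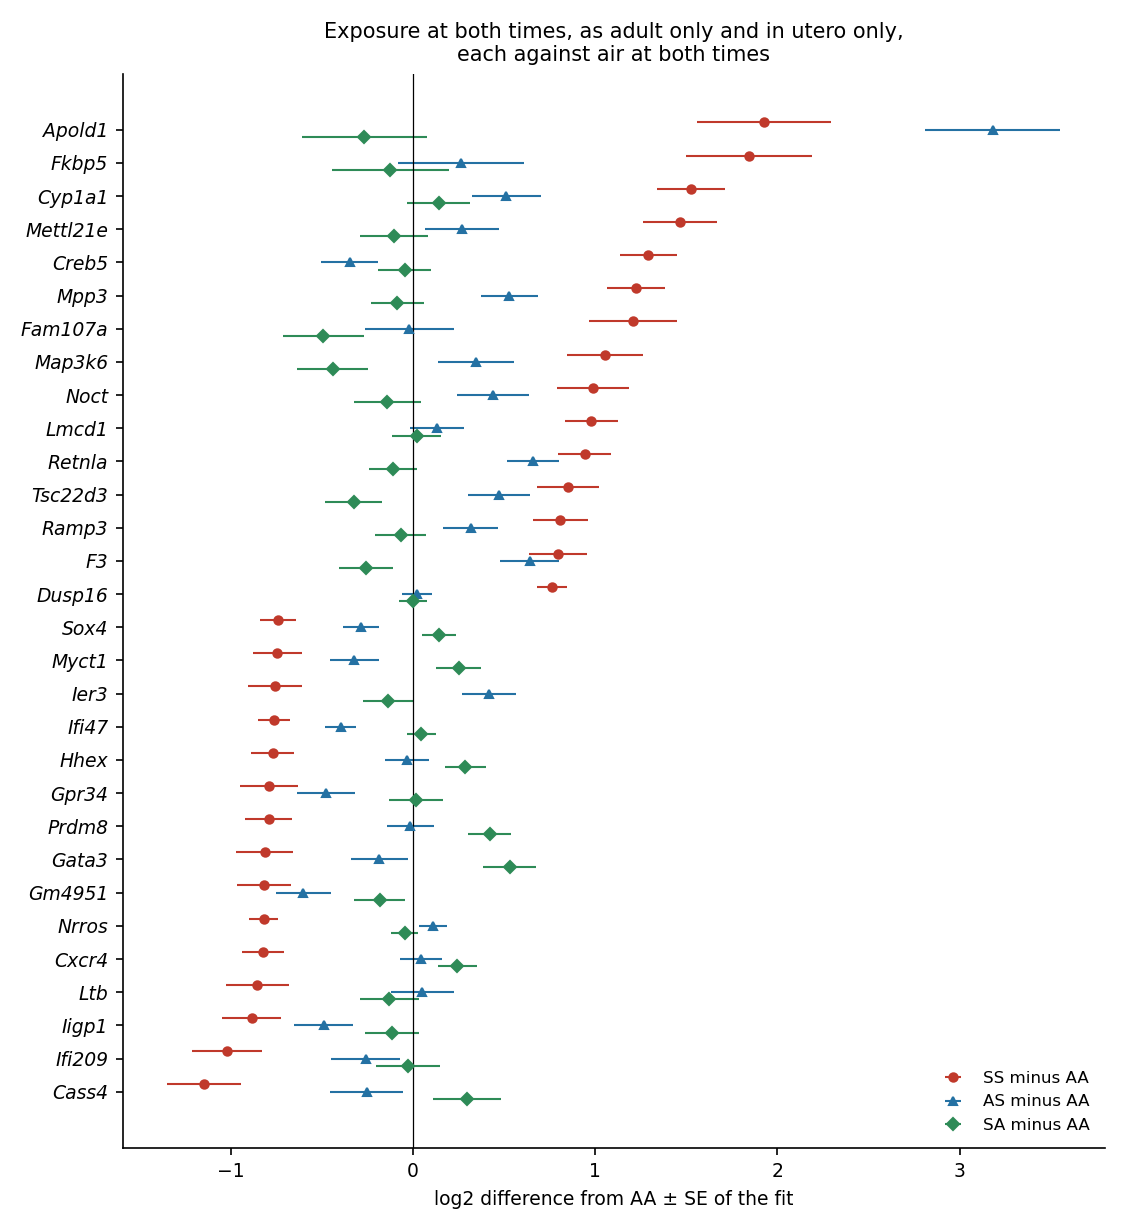
Log2 difference from AA lungs, with the standard error of the fit, of the 30 genes with the largest changes in SS: SS minus AA as circles, AS minus AA as triangles and SA minus AA as diamonds. Apold1 lies further out in AS than in SS, while Creb5, Dusp16, Cxcr4 and Nrros lie near 0 or on the other side of it in AS and SA.

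Whether the adult smoke effect differed with the exposure before birth was tested by the interaction, SS minus SA against AS minus AA. It passed for 59 of 45037 probe sets (0.131%) and, by brightest probe set, for 21 of 18193 genes (0.115%), among them 6 of the 30. The 30 were chosen by SS minus AA, and the interaction uses the same SS and AA samples. Creb5 had an interaction of 1.68 (adjusted p = 0.00737): SS minus SA was 1.34 and AS minus AA was -0.35. Its AS samples read 7.06, 6.87 and 6.87 and its SA samples 7.18, 7.06, 7.14 and 7.56, all below the lowest SS sample at 8.27. Dusp16 had 0.74 (adjusted p = 0.0197), with 0.76 for SS minus SA and 0.02 for AS minus AA. Among the falls, Nrros had -0.88 (adjusted p = 0.00737), Cxcr4 -1.11 (adjusted p = 0.0142), Prdm8 -1.20 (adjusted p = 0.015) and Hhex -1.03 (adjusted p = 0.0283). For these 4, AS minus AA lay between -0.03 and 0.11. For Cyp1a1 (0.87, adjusted p = 0.266), Fkbp5 (1.70, adjusted p = 0.226) and Ifi47 (-0.41, adjusted p = 0.24) the interaction did not pass.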

How the data were processed

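The authors deposited 1 log2 value per probe set and array. The table was read as log2 from its values (2.40 to 15.11), and array medians of 6.90 to 6.93 show that it had been put on a common scale. How background was corrected, arrays normalized and probes summarised is not given in the sources used here; per the submitters' processing notes the 1 tool named is limma, with no version. Of 45101 probe sets, 64 controls were left out. Names came from the platform annotation, updated through Entrez identifiers for 34741 probe sets: 34945 had 1 symbol (18193 genes), 932 several and 9160 none.

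A linear model with a mean per group was fitted to 14 samples with limma 3.58.1 in R 4.3.3 (10 residual degrees of freedom, two-sided, Benjamini-Hochberg within each comparison). All 4 groups shared the estimate of spread. No filter on dim probe sets was applied, no raw intensities were used, and the number of arrays limits the precision. On simulated data for SS minus AA over 45037 probe sets, 32, 47, 48 and 50 of 50 seeded changes of 0.5, 1, 1.5 and 2 log2 units were recovered, with 8 false calls. The simulated noise was normal and independent, with each probe set's own spread and no effect shared within a sample. These counts hold for that setting and do not give the recovery or false calls of the real data.

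Genes named are the 15 largest called rises and falls without overlap at the brightest probe set, the 4 largest each way among genes called at a dimmer probe set, and, per described list, members that passed plus at most 2 others, those that differed most. Members shown beyond that rule (Junb, the lung marker Sftpc) were chosen after their values were seen. The comparison and the 44 gene lists (545 of 593 genes matched) were chosen with earlier results of these data known, so lists have counts and medians and no test. The alternatives tried were other samples in the fit, normalization, filters, array weights, variance prior, a replicate block and leaving out each sample.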

Additional observations from a re-analysis of the deposited data

Results flagged for a closer look

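The interaction, SS minus SA against AS minus AA, was looked up for 95 named probe sets. It passed for 8 of them (limma, adjusted p at most 0.05 over all probe sets). It was 1.68 for Creb5, 0.74 for Dusp16, 0.98 for a dimmer probe set of Klf9, -1.11 for Cxcr4, -0.88 for Nrros, -1.20 for Prdm8, -1.03 for Hhex and -0.66 for Dusp6. Dusp6 stood at -0.48 in SS and 0.48 in AS, each minus AA. The 95 were named by their SS minus AA differences, and the interaction uses the same SS and AA samples, so the 8 are not independent of that choice. By brightest probe set, 21 of all 18193 genes passed the interaction.

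Of 119 checks for a lone far sample among the 4 AA samples or their list means, 4 exceeded Dixon's critical value for 4 samples, and chance gives about 1 in 20. Retnla had a gap of 0.961 of its range, with AA replicate 3 at 9.85 and the others at 9.46 to 9.48. A dimmer probe set of Zbtb16 had 0.939, with AA replicate 4 at 7.25 and the others at 6.25 to 6.31. The list means of Kruppel-like factors and of fibroblast markers had 0.960 and 0.842.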

How the results depend on the processing

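The count of called probe sets was 170 after a further quantile normalization and 177 with centred arrays. The 180 probe sets and 94 genes became 406 and 209 with all 16 arrays as separate samples and 792 and 396 with array weights, and lay between 34 and 191 probe sets and between 17 and 95 genes when 1 sample was left out, fewest without SS replicate 3. Of the 30 named genes 9 kept their call without the averaged SS pair and 9 without SS replicate 3, 18 in a fit of AA and SS alone, and 30 with all 16 arrays; none changed direction. With a replicate block the count was 126 probe sets and 59 genes, and 21 of the 30 kept their call and 9 lost it. The labels do not say that the replicate numbers are pairs, and they were not taken as such. Same-numbered SS and AA arrays correlated in their deviations by -0.012, 0.142, 0.114 and 0.101. SS replicates 2 and 3 correlated best with the same-numbered AA array. SS replicate 1 correlated best with AA replicate 2 (0.040) and SS replicate 4 with AA replicate 1 (0.113). Whether same-numbered arrays share an effect was not tested. Over the fits that left out a sample, list medians ranged from 0.077 to 0.36 for clock genes, -0.25 to 0.038 for chemokines, 0.10 to 0.22 for p53 targets, 0.23 to 0.30 for Kruppel-like factors and 0.045 to 0.13 for alveolar macrophages. With probe sets of a mean log2 of at least 6, the median was 0.30 for AhR targets and -0.083 for DNA methylation genes. With a mean of at least 8 it was 0.30 for AhR targets, 0.23 for type 2 and mucus genes, 0.041 for chemokines, -0.43 for neutrophils and -0.013 for emphysema proteases, where fewer genes are left. The p53 median was 0.10 with all 16 arrays, and that of Kruppel-like factors 0.26 after quantile normalization and 0.29 with centred arrays. Rsad2 lay between -0.17 (without SS replicate 4) and 0.77 (without SS replicate 3). Other causes of these shifts were not tested.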
